A study of Mus musculus with 5 samples.

Results

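Chemokines and their receptors were examined across 5 mouse samples, each hybridised to 1 single-colour expression array. The samples were 1 of mouse embryonic fibroblasts (MEF), 1 of brain-derived neural progenitor cells used as the control (NPC) and 3 of neural progenitors that had been induced chemically (ciNPC). The series title gives the induction as chemical cocktails and hypoxia. Of the ciNPC arrays, 1 was at passage 5 (p5) and 2 were at passage 13 (p13, replicates 1 and 2). The labels describe the RNA as coming from primary cells and give no strain, allele, animal age or individual compound for these groups. Whether the p13 samples were separate cultures is not given either, and the p-values therefore cover only the spread among these samples, which may be technical.

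The members were the non-control probes whose gene name in the array design is that of a CC, CXC, CX3C or XC chemokine or of one of their receptors, with 1 CXC ligand left out by the same rule. They were 66 probes for 53 genes, out of 21983 genes on the array with a name in the reference table. 20 were CC ligands, 12 were CXC ligands, 2 were the CX3C and XC ligands and 19 were receptors.

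Chemokines are small secreted proteins that form gradients and guide migrating cells. Their names follow the spacing of the first cysteines. They act through receptors with several membrane-spanning helices coupled to Gi proteins, and atypical receptors such as Cxcr7 (now named Ackr3) bind them without G-protein signalling. Fibroblasts release several inflammatory chemokines under NF-kappaB control, and Cxcl12 with its receptor Cxcr4 is known for the placing of migrating progenitors and neurons in the developing brain.

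Levels are given as relative levels, log2 of the processed signal minus the 75th percentile of the array, so that 0 is the 75th percentile of that array. Values are listed in the order MEF, ciNPC p5, ciNPC p13 replicate 1, ciNPC p13 replicate 2 and NPC, and levels of different probes are not set against each other. A probe counts as above background where the scanner software marked it well above background. Of the 62976 spots on an array, 59305 were non-control spots, and between 47.9% and 57.6% of them were above background. All ciNPC arrays were on slide 2 (scan 2) while MEF and NPC were on slide 1 (scan 1). In the comparisons of ciNPC with either reference, cell type and slide cannot be told apart. The comparisons of NPC with MEF and of p13 with p5 lie within a slide.

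The cell type labels were checked against marker lists. All 12 neural progenitor markers were above background on the 3 ciNPC arrays and on NPC, against 5 of 12 on MEF, where Sox2, Sox3, Pax6, Olig1 and Olig2 were among those that were not. Their mean relative level, with dim values raised to the floor of each array, was -2.61 on MEF, 3.13 to 3.48 on ciNPC and 3.84 on NPC. All 12 fibroblast markers were above background on MEF and on the 3 ciNPC arrays and 7 of 12 were on NPC, with means of 5.71 on MEF, 2.66 to 3.25 on ciNPC and -2.09 on NPC. The fibroblast markers therefore lay in the same order across cell types as many of the ligands described next, and their part in those results was not tested. In bulk RNA, fewer cells of a type and less RNA per cell cannot be told apart.

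Of the 53 genes, 32 were above background on at least 1 array and 21 on none. MEF had the most genes above background, 28, and also the highest share of all non-control spots (57.6%). That share was 49.1%, 47.9% and 54.1% on the ciNPC arrays in the order given, and 55.2% on NPC. 13 genes were above background on all 3 ciNPC arrays, 11 on NPC and 7 on all 5 arrays. 8 genes were above background on MEF alone. These were the monocyte and macrophage ligands Ccl3, Ccl4, Ccl6, Ccl8 and Ccl12, and the receptors Ccr7, Cxcr3 and Cx3cr1. The lowest level well above background was -4.12 on MEF and -4.18 on NPC, but -3.3, -3.05 and -2.62 on the ciNPC arrays. The MEF levels of Ccr7 (-3.90), Ccl8 (-3.38) and Cx3cr1 (-3.33) were under all 3 ciNPC values. Those of Cxcr3 (-3.21), Ccl6 (-2.91) and Ccl12 (-2.80) were under 1 or more of them. For these genes, detection on MEF alone does not show a higher level in MEF. All 13 CC ligands that were detected anywhere were detected in MEF, against 6 on all 3 ciNPC arrays and 4 in NPC. The counts for MEF and NPC include Ccl19, whose probes carry a limit given below. Of the 12 CXC ligands, 6 were detected in MEF, 4 on all 3 ciNPC arrays and 1 in NPC. Each of these counts includes Cxcl11, which is the 1 in NPC and whose signal is described apart below.

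The 29 genes detected throughout at least 1 of the groups were tested with limma. To pass, a gene needed an adjusted p under 0.05 and 2-fold or more between the means. A difference is the mean log2 level of the first group minus that of the second. Against MEF, 1 member was higher in ciNPC and 6 were lower, where 15.6% of all 16231 genes tested were higher and 15.1% lower. Against NPC, 10 members were higher in ciNPC and 0 were lower, where 4.9% of all genes were higher and 0.0801% lower. At an unadjusted p under 0.05, 13 members differed between ciNPC and NPC, and 2615 genes did in all. Between p13 and p5, 1 member was higher and 0 were lower, against 0.407% and 0.259% of all genes. There 9 of the 29 members had an unadjusted p under 0.05, and 3673 of the 16231 genes did in all. The members' median difference was -0.97 against MEF and 0.92 against NPC, beside -0.08 and -0.11 over all genes tested. A member bright in only 1 group enters the test through that group, so these counts and medians describe the tested members and not the whole family.

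**Figure D1:**
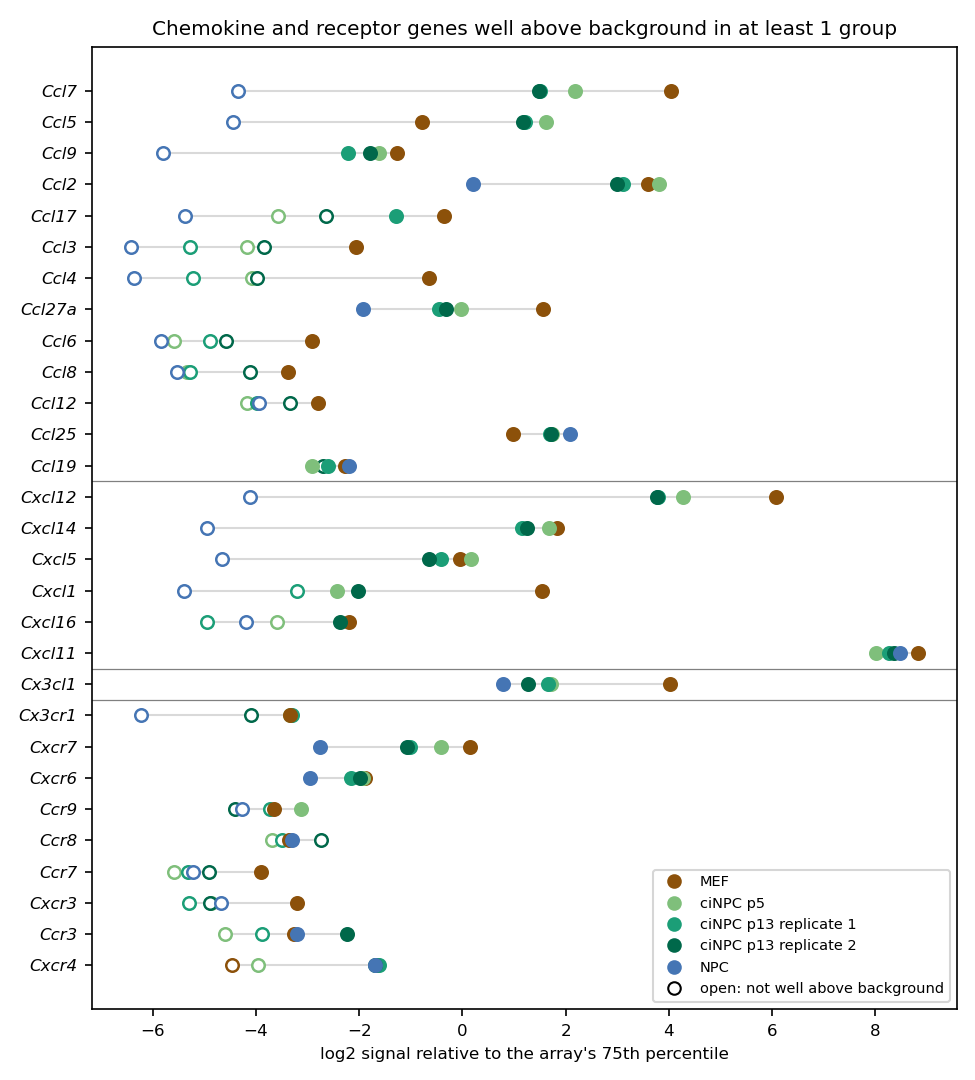
Relative level (log2 signal minus the array's 75th percentile) of the 29 tested members on each of the 5 arrays, grouped from top to bottom as CC ligands, CXC ligands, Cx3cl1 and receptors, with open points where a probe was not well above background. The NPC points of Ccl5, Ccl7, Ccl9, Cxcl5, Cxcl12 and Cxcl14 are open and lie far left of the ciNPC points, while Cxcr4 is filled in NPC and p13 only.

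Ccl2, Ccl5, Ccl7 and Ccl9, inflammatory CC ligands that attract monocytes, T cells and other leukocytes, were detected in MEF and on every ciNPC array, and all 4 were higher in ciNPC than in NPC. Ccl2, the main monocyte attractant, had relative levels of 3.60, 3.80, 3.11, 3.0 and 0.21. 1 ciNPC array lay above MEF and 2 below it, and all 3 were far above NPC. The ciNPC mean of 3.30 ± 0.43 (SD, n = 3) exceeded NPC by 3.10 (SE 0.30, adjusted p = 0.000961), or 8.55-fold, and differed from MEF by -0.30 (SE 0.30, adjusted p = 0.462). Without the intensity trend the adjusted p against NPC was 0.0625.

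Ccl7, a close relative of Ccl2 that also attracts monocytes, had relative levels of 4.04, 2.19, 1.5, 1.49 and -4.34. Its level on ciNPC was between those of MEF and NPC, and it was not above background in NPC. Relative to MEF, ciNPC fell by 2.31 on the log2 scale (SE 0.30, adjusted p = 0.000918), and ciNPC was at least 60.1-fold higher than NPC (adjusted p = 3.48e-05). Here and elsewhere "at least" sets the brighter mean against the dimmer array's lowest well-above-background signal or its own value, whichever was higher. For Cxcl12 in NPC its own value was the higher, at -4.11 against -4.18. The brighter mean keeps any values under background, and where it holds such values the figure is not a strict bound. An adjusted p beside such a bound comes from the fit on measured values, those under background included, and does not test the bound.

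Ccl5, which attracts T cells and is induced by both NF-kappaB and interferon pathways, was the only member that passed above MEF at 2-fold or more. Its relative levels were -0.78, 1.62, 1.22, 1.17 and -4.44, so that all 3 ciNPC arrays were above MEF and NPC was not above background. The difference from MEF was 2.11 (SE 0.27, adjusted p = 0.000765), or 4.32-fold, and ciNPC was at least 45.8-fold higher than NPC (adjusted p = 2.54e-05).

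Ccl9, a macrophage inflammatory ligand, had relative levels of -1.26, -1.61, -2.22, -1.79 and -5.80. ciNPC was at least 4.95-fold higher than NPC (adjusted p = 0.00306), and its difference from MEF was -0.61 (SE 0.48, adjusted p = 0.337).

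Ccl3 and Ccl4, ligands that macrophages secrete, were seen in MEF only. Ccl4 had relative levels of -0.64, -4.07, -5.21, -3.97 and -6.36, and was at least 5.08-fold lower in ciNPC than in MEF (adjusted p = 0.0133). Ccl3 had relative levels of -2.07, -4.17, -5.27, -3.85 and -6.42, and its adjusted p against MEF was 0.105, or 0.0166 without p13 replicate 2. Ccl6, Ccl8 and Ccl12 showed the same detection, with MEF levels of -2.91, -3.38 and -2.80, and none of them passed a test. With quantile normalisation the adjusted p of Ccl6 against MEF was 0.0461, with every ciNPC array under background. Ccl17, a T-cell attractant read at -0.36, -3.58, -1.28, -2.64 and -5.37, was above background in MEF and on 1 ciNPC array, p13 replicate 1. Its difference from MEF was -2.14 (SE 0.85, adjusted p = 0.078), and leaving out either p13 array brought that adjusted p to 0.0154 or 0.0439. Without p13 replicate 1, no remaining ciNPC array was above background for it.

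Markers of macrophages and microglia were given beside these ligands. Of 15, 9 were above background on MEF, 7 to 9 on the ciNPC arrays and 4 on NPC, and their mean at the floor ranged from -1.95 to -1.49 on ciNPC, beside -1.63 on MEF and -3.19 on NPC. Of the 11 tested, 4 were lower in ciNPC than in MEF (Tmem119, Itgam, Trem2 and Csf1r), where 15.1% of all genes were. Higher in ciNPC than in NPC were 5 (Tmem119, Aif1, Tyrobp, Adgre1 and Trem2), where 4.9% of all genes were. The defining leukocyte marker Ptprc and the myeloid genes Spi1, Fcgr1 and P2ry12 were above background on no array. Their part in the ligand levels was not tested.

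3 CC ligands of tissues rather than of inflammation behaved differently from one another. Ccl27a, a ligand of skin, had relative levels of 1.57, -0.02, -0.46, -0.32 and -1.92. Relative to MEF, ciNPC fell by 1.84 on the log2 scale (SE 0.26, adjusted p = 0.00125) and exceeded NPC by 1.65 (SE 0.26, adjusted p = 0.0109), the second of which was lost with quantile normalisation (adjusted p = 0.0716), with the deposited value table (0.0722) and without the intensity trend (0.0851). Ccl27a has near-identical copies in the mouse genome, so its signal cannot be assigned to a single copy. Its 3 probes gave differences from MEF of -1.84, -1.71 and -2.57.

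Ccl25, known for thymus and gut homing, was instead lowest in MEF, with relative levels of 0.98, 1.74, 1.69, 1.71 and 2.08. The difference from MEF of 0.74 (SE 0.16, adjusted p = 0.00745) was under 2-fold, and it was 1.21 (adjusted p = 0.0437) when the gene's probes were averaged. Ccl19, a ligand of Ccr7, stayed within a narrow range on its brightest probe, at -2.28, -2.91, -2.60, -2.70 and -2.2, and passed no test. A separate Ccl19 probe, above background on 3 arrays, varied more, at -2.18, -3.47, -3.29, -2.03 and -3.54. Another was above background on no array. A stretch of the varying probe lies within the 250 bases before the Ccl19 start in the reference. A stretch of the brightest probe overlaps the end of those bases. The probes are placed on the + strand of chromosome 4, and that start is on the - strand. Whether their signal comes from Ccl19 transcripts was not tested. The other 7 CC ligands, Ccl1, Ccl11, Ccl20, Ccl22, Ccl24, Ccl26 and Ccl28, were above background on no array.

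**Figure D2:**
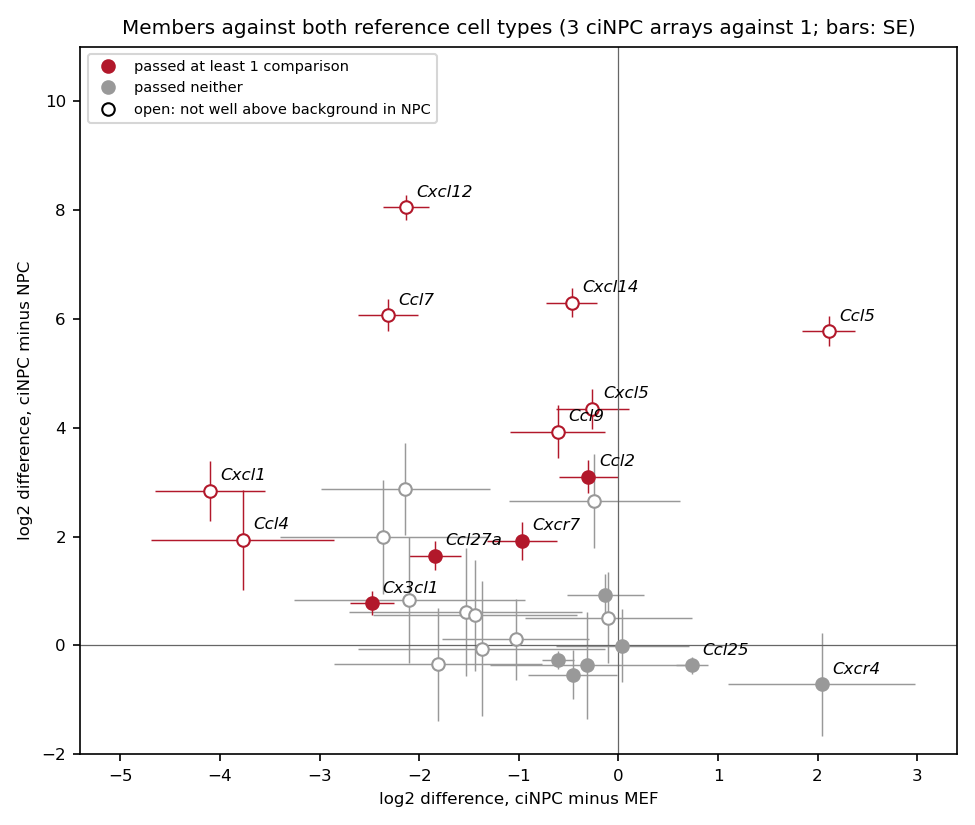
Log2 difference of the mean of 3 ciNPC arrays from MEF (horizontal) and from NPC (vertical) for the 29 tested members, with bars of 1 SE from the fit and open points where the gene was not well above background in NPC and its vertical position is not a measured fold. Cxcl12, Cxcl14, Ccl7 and Ccl5 lie highest, above 5 on the vertical axis, and Ccl5 is the only one of the passing genes to the right of 0.

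Cxcl12, a homeostatic ligand of stromal cells and the ligand of Cxcr4, had the widest span of the CXC ligands. Its relative levels were 6.07, 4.28, 3.78, 3.77 and -4.11, and a separate probe read 4.11, 2.02, 1.19, 1.13 and -6.45. Both probes placed MEF highest, the ciNPC arrays below it, and NPC under background. Relative to MEF, ciNPC fell by 2.13 on the log2 scale (SE 0.23, adjusted p = 0.000376) and was at least 266-fold higher than NPC (adjusted p = 4.24e-06). The probes lie on the + strand of chromosome 6 on build mm9, at chr6:117131227-117131286 and chr6:117125026-117125085. The last 30 bases of each are shown, since the second holds the hexamer of polyadenylation signals, in capitals, and the first does not.
Cxcl12 probe 1: tgctttcttattcttatttttaatatatga
Cxcl12 probe 2: tatttacctgaAATAAAatctactagttgt

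Cxcl14, a ligand of epithelia and stroma whose receptor is not settled, had relative levels of 1.83, 1.68, 1.16, 1.25 and -4.94. MEF and ciNPC were close, with a difference of -0.47 (SE 0.26, adjusted p = 0.191), and ciNPC was at least 46.6-fold higher than NPC (adjusted p = 1.76e-05). Cxcl5, a neutrophil attractant, had the same shape, at -0.04, 0.16, -0.42, -0.64 and -4.65. Its difference from MEF was -0.26 (SE 0.37, adjusted p = 0.613), and it was at least 14.7-fold higher in ciNPC than in NPC (adjusted p = 0.00053).

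Cxcl1, another neutrophil attractant and an immediate target of NF-kappaB, had the lowest fitted difference of the members that passed against MEF. Its relative levels were 1.55, -2.43, -3.21, -2.02 and -5.4. MEF stood apart from every other array, and p13 replicate 1 was under background along with NPC. The fitted difference from MEF was -4.10 (SE 0.55, adjusted p = 0.00101), with 2 of the 3 ciNPC arrays above background. ciNPC was at least 3.09-fold higher than NPC (adjusted p = 0.0298), a call that was lost under 5 alternatives that tested it, with adjusted p between 0.0674 and 0.143.

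Cxcl16, a membrane-bound ligand of Cxcr6, had relative levels of -2.2, -3.59, -4.95, -2.37 and -4.19, and passed no test with all arrays. It was above background on MEF and on p13 replicate 2 alone. Without p13 replicate 2, which leaves no ciNPC array above background, its adjusted p against MEF was 0.0305. Cxcl2, Cxcl3, Cxcl9, Cxcl13, Cxcl15 and Cxcl17 were above background on no array. The 21 undetected members of all classes had relative levels between -6.52 and -2.62.

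Cxcl11 is described apart from the other ligands. The reference table lists it as a transcribed pseudogene in this genome, and its brightest probe read 8.82, 8.02, 8.27, 8.36 and 8.48. The stretch printed here shows in capitals 16 bases that occur in 24 of 32851 promoter windows and in 10 other probes of the array.
Cxcl11 probe: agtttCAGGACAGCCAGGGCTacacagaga
All 10 of those other probes were above background on all 5 arrays, with mean levels from -1.98 to 9.64 and a median of 3.93. A separate Cxcl11 probe read 3.57, 2.23, 2.25, 2.22 and 2.60. Its most repeated 16 bases occurred in 3 windows and in 1 other probe, with a mean level of 8.75. The share of either signal that comes from Cxcl11 was not tested.

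Cx3cl1, or fractalkine, a membrane-bound ligand that neurons present to microglia, had relative levels of 4.02, 1.72, 1.66, 1.27 and 0.78. It was detected on all 5 arrays and was highest in MEF. Relative to MEF, ciNPC fell by 2.47 on the log2 scale (SE 0.22, adjusted p = 0.000164), or 5.53-fold, and its difference from NPC was 0.77 (SE 0.22, adjusted p = 0.122). Its receptor Cx3cr1, a marker of microglia, was above background in MEF only on its brightest probe, at -3.33. That probe read -3.33, -3.30 and -4.09 on the ciNPC arrays and -6.22 on NPC. A separate Cx3cr1 probe was above background on no array, and read -6.38 on MEF and -4.95 on NPC. Xcl1, a lymphocyte ligand, was above background on p13 replicate 1 only, at -1.24 against -3.49 on the other p13 array.

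Of the 19 receptors, 11 were above background on at least 1 array, 9 were tested, 0 passed against MEF and 1, Cxcr7, passed against NPC. Against MEF, 1 of the 9 had an unadjusted p under 0.05, beside 8743 of all 16231 genes. Ccr1, Ccr2, Ccr4, Ccr6, Ccr10, Cxcr1 and Xcr1 were above background on no array, so that Ccr2, the main receptor of Ccl2 and Ccl7, was not detected. Cxcr6, the receptor of Cxcl16, read -1.89, -1.93, -2.16, -1.99 and -2.95, lowest in NPC, and passed no test.

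Cxcr4, the signalling receptor of Cxcl12, had another order than its ligand. Its relative levels were -4.46, -3.95, -1.62, -1.69 and -1.70, so that the p13 arrays and NPC lay close together and MEF and p5 were under background. It was higher at p13 than at p5 by 2.29 (SE 0.57, adjusted p = 0.0387), at least 3.12-fold, and NPC exceeded MEF by at least 5.33-fold. The passage call was lost with quantile normalisation (adjusted p = 0.192), with the deposited value table (0.190) and without the intensity trend (0.507), and was kept under the other alternatives that could test the gene except the restriction to probes above background on all arrays, which removes it. The mean of the 3 ciNPC arrays was at least 3.24-fold above the floor of MEF and did not pass (adjusted p = 0.12), and it passed without p5 (adjusted p = 0.000779). The last 30 bases of its single probe, on the - strand of chromosome 1 on build mm9 at chr1:130485079-130485138, also hold the polyadenylation hexamer, in capitals.
Cxcr4 probe: gtaaattgAATAAAgctagccgtgatcctc

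Cxcr7, the atypical receptor that binds and removes Cxcl12, was highest in MEF and lowest in NPC, as its ligand was. Its relative levels were 0.14, -0.41, -1.02, -1.08 and -2.75. ciNPC exceeded NPC by 1.92 (SE 0.35, adjusted p = 0.0238), or 3.77-fold, and differed from MEF by -0.97 (SE 0.35, adjusted p = 0.0589), or by -1.19 without p5 (adjusted p = 0.00554). The call against NPC was lost with quantile normalisation (adjusted p = 0.192), with the deposited value table (0.193), without the intensity trend (0.134) and without the filter on dim probes (0.0535). 16 bases of its probe occurred in 27 of 32851 promoter windows but in no other probe of the array.

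**Figure D3:**
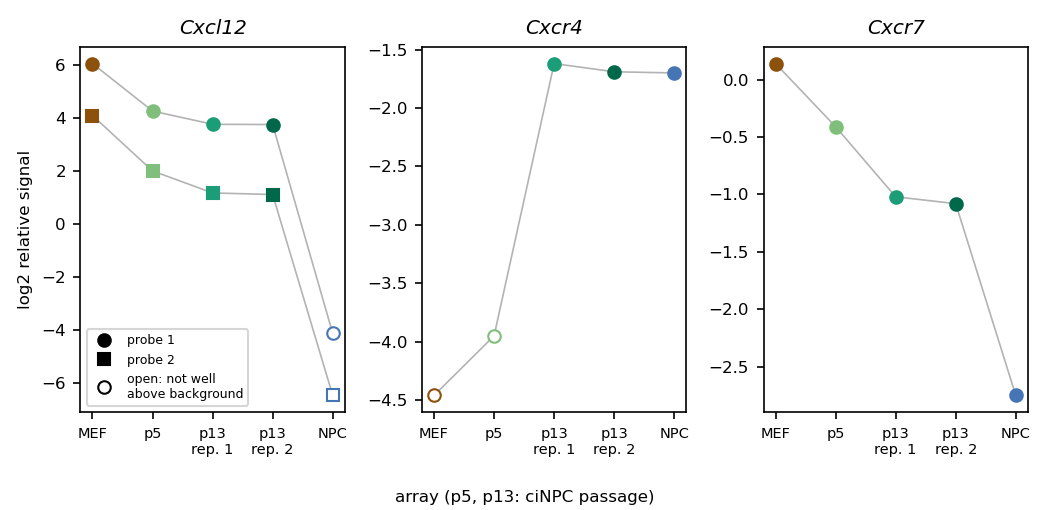
Relative level on each array of Cxcl12 (circles and squares are separate probes), its signalling receptor Cxcr4 and its atypical receptor Cxcr7, with open symbols where a probe was not well above background and a separate vertical scale per gene. Cxcl12 drops under background in NPC, Cxcr4 rises above background at p13 and in NPC, and Cxcr7 is highest in MEF at 0.14 and lowest in NPC at -2.75.

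The other tested receptors were near background. Ccr3, the eotaxin receptor, read -3.27, -4.60, -3.89, -2.24 and -3.20. Ccr7 and Cxcr3, receptors of lymphocyte homing, were above background only in MEF, at -3.90 and -3.21. Without the intensity trend, the fitted difference of Cxcr3 from MEF was -1.81 (limma, adjusted p = 0.0183). Every ciNPC value in it was under background, and the MEF level was under the floors of both p13 arrays (-3.05 and -2.62). That call does not show a lower level in ciNPC. Ccr8 and Ccr9 ranged from -3.69 to -2.74 and from -4.40 to -3.13. A separate Ccr8 probe was above background only on p13 replicate 1, at -1.08. Cxcr2 and Cxcr5, which were not tested, were above background on p13 replicate 2 only, at -2.11 and -2.37.

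NPC and MEF shared a slide, with 1 array each, and no test was run. 14 of 29 tested members were at least 4-fold lower in NPC after dim values were raised to the floor, where 10.1% of all genes were, and 1 was higher, where 7.94% were. The lower genes with only a bound were Cxcl12 (at least 1160-fold), Ccl7 (298), Cxcl14 (64.4), Cxcl1 (53.0), Cxcl5 (17.6), Ccl17 (14.1), Ccl4 (11.6), Ccl5 (10.6), Ccl9 (7.57) and Ccl3 (4.30). Those measured in both were Ccl27a (11.2-fold), Ccl2 (10.5-fold), Cx3cl1 (9.45-fold) and Cxcr7 (7.41-fold). The gene that was higher in NPC was Cxcr4. The 8 members above background on MEF alone entered the tested set through MEF, and Ccl3 and Ccl4 among the 14 are of these. The count of lower genes therefore describes the tested members and not the whole family. This comparison shares its arrays with the ciNPC comparisons, so their values stand side by side and are not independent.

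Passage was compared within a slide. Ccl2 was lower at p13 by -0.74 (SE 0.11, adjusted p = 0.00547), Ccl7 by -0.70 (SE 0.14, adjusted p = 0.0181) and Cxcl12 by -0.50 (SE 0.11, adjusted p = 0.021), each on both p13 arrays and each under 2-fold. The adjusted p of all 3 was above 0.05 with quantile normalisation, with the deposited value table and without the intensity trend, where it reached 0.507. The 12 fibroblast markers were also lower at p13, with differences from -0.95 to -0.33 and a median of -0.46, and none of them reached 2-fold. The part of these markers in the ligand differences was not tested. Cxcl5 and Cxcr7 differed by -0.69 and -0.65, with adjusted p of 0.172 and 0.176.

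Neighbouring genes were read together, since most chemokine genes lie in clusters. Clusters were set here by distance between probes alone, and a cluster can hold a wide gap. In a cluster on chromosome 11, 11 CC ligands span 1627.4 kb in mm9, with a gap from Ccl1 at 139.5 kb to Ccl5 at 1488.6 kb. Of these ligands, 9 were above background in MEF, 4 on all 3 ciNPC arrays and 1 in NPC. Ccl2 and Ccl7, 10.0 kb apart, were bright in MEF and ciNPC, while Ccl11, 25.4 kb from Ccl2, was above background on no array. At the far end, Ccl5 and Ccl9 were detected in ciNPC, and Ccl6, Ccl3 and Ccl4 were not. A cluster of 7 CXC ligands on chromosome 5 spans 1598.1 kb, with a gap from Cxcl2 at 144.0 kb to Cxcl9 at 1562.3 kb. Before the gap, Cxcl5 and Cxcl1 were detected beside undetected Cxcl3, Cxcl15 and Cxcl2. A cluster of 7 receptor genes on chromosome 9 spans 350.9 kb, of which 3 were above background in MEF, 1 on all 3 ciNPC arrays and 2 in NPC. Detected and undetected genes thus stood side by side in each cluster.

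**Figure D4:**
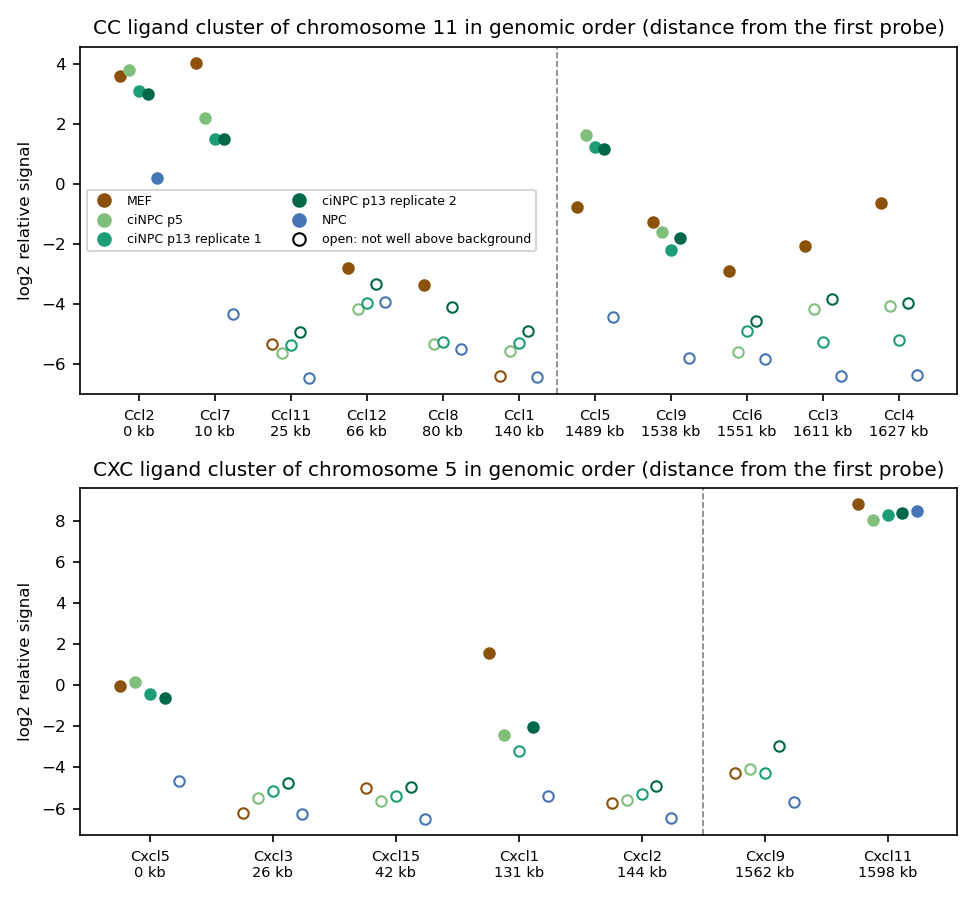
Relative level on each array of the CC ligand cluster of chromosome 11 (top) and the CXC ligand cluster of chromosome 5 (bottom) in genomic order, labelled with the distance of each probe from the first in kb, with open points where a probe was not well above background and a dashed line at the wide gap. Both clusters hold detected and undetected genes, and Cxcl11 is the one whose probe holds a repeated stretch.

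Promoters were searched in the 250 bases before the gene start, from RefSeq on GRCm38.p6, which held 42 windows for 38 of the 53 member genes. Ccl2, Ccl4, Ccl5, Ccl7 and Cxcl5 were among the members without a window, and their promoters were not searched. The NF-kappaB consensus was found in 7 of 42 windows (16.7%), against 3.9% of 32851 windows in all. The genes were Ccl9, Ccl20, Ccr3, Ccr6, Cxcl1, Cxcl2 and Cxcl3. The core of the interferon-stimulated response element was in 2 of 42 (4.76%, against 2.98%), Ccl19 and Cxcl14, and the hypoxia-response core, ACGTG or GCGTG, in 19 of 42 (45.2%, against 38.6%). Both strands were searched, and a match is a run of letters, not a measured site.

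Cxcl1, Cxcl2 and Cxcl3 are shown because the same NF-kappaB match stands in all 3 promoters while Cxcl1 alone was detected. These 3 were chosen after their values were seen. The last 100 bases before each start are printed on the gene's strand, with the overlapping matches of both strands in capitals, at chr5:90891145-90891244, chr5:90903799-90903898 and chr5:90786001-90786100.
Cxcl1: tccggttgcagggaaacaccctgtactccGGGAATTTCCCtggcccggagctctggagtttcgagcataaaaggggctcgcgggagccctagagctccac
Cxcl2: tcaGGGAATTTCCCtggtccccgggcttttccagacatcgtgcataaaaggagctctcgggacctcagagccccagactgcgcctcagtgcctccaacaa
Cxcl3: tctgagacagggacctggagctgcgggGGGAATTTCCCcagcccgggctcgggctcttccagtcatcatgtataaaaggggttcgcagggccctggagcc
The match begins 71, 97 and 73 bases before the start. The MEF levels were 1.55 for Cxcl1, above background, and -5.74 and -6.22 for Cxcl2 and Cxcl3, under it.

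The members with the highest differences from NPC that the table held are Cxcl12, Cxcl14 and Ccl9, and their 250 bases are printed in the same way, at chr6:117168285-117168534 on the + strand and at chr13:56296552-56296801 and chr11:83578637-83578886 on the - strand. Capitals mark matches to any of the searched patterns. Ccl7, Ccl5 and Cxcl5 had greater differences from NPC than Ccl9 but no window.
Cxcl12: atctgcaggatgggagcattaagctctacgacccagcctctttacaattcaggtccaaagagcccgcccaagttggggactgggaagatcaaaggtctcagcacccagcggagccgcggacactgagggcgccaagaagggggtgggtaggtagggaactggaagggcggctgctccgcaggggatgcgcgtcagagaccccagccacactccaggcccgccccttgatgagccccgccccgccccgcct
Cxcl14: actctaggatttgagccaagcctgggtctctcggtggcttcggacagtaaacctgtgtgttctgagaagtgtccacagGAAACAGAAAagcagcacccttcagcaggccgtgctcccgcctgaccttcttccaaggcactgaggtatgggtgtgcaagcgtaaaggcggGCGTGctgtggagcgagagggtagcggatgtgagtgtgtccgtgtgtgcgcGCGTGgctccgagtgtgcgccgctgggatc
Ccl9: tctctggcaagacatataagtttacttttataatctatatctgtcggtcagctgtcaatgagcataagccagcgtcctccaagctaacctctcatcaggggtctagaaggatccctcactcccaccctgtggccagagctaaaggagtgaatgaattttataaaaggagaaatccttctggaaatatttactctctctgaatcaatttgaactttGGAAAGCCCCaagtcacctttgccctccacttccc
Cxcl12 held none of the patterns. Cxcl14 held the interferon-response core at 172 to 163 bases and the hypoxia-response core at 81 to 77 and at 30 to 26 bases before the start. Ccl9 held the NF-kappaB consensus at 35 to 26 bases. No searched pattern stood in all 3 promoters.

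Genes that act around the chemokines were read from 4 lists. Over all genes tested, 15.6% were higher and 15.1% lower in ciNPC than in MEF. Against NPC, 4.9% of all genes were higher and 0.0801% lower. Of 32 NF-kappaB pathway and target genes, 26 were tested, and 11 were lower and 0 higher in ciNPC than in MEF, with a median difference of -1.39. Among the 11 that passed, the largest falls were in the inhibitor Nfkbia, by 2.80 on the log2 scale, in the cytokine Il6, by 2.66, in the subunit Relb, by 2.60, and in the receptor Tlr2, by 2.14. Against NPC, 8 were higher and 0 lower, with a median of 0.50. Among them Ptgs2, the inducible prostaglandin synthase, was at least 23.3-fold higher, the interleukin-1 receptor Il1r1 at least 20.2-fold, Bcl3 at least 14.6-fold and the feedback inhibitor Tnfaip3 at least 10.8-fold.

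Interferon-response genes ran the other way against MEF. Of 24, 23 were tested, and 11 were higher and 2 lower in ciNPC, with a median of 1.08. Rtp4 differed by 3.58, Oas1a by 3.4 and Usp18 by 3.18, and Rsad2 was at least 3.92-fold higher, while the transcription factor Irf1 fell by 1.05 and the immunoproteasome subunit Psmb8 by 1.01. Against NPC, 15 were higher and 0 lower, with a median of 2.61. Oas1a was at least 85.8-fold higher, Oasl2 at least 34.2-fold, Xaf1 at least 23.3-fold and Ifit3 at least 10.6-fold.

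Of 14 atypical receptors and genes of chemokine processing, 12 were tested, and 5 were lower and 0 higher in ciNPC than in MEF. The protease Mmp2, which cleaves Cxcl12 and Ccl7, fell by 2.29, the heparan sulphate polymerase Ext1 by 2.19 and the syndecan Sdc1 by 2.01. The scavenging receptor Ackr4 was at least 2.64-fold lower. Against NPC, 1 was higher, the Cxcr7 described earlier, a count near the share of all genes. Of 25 genes of receptor signalling, 22 were tested, and 4 were higher and 5 lower than MEF. These counts were near the shares of all genes, and the genes are named for their values only. Grk3, a kinase that desensitises Cxcr4, was at least 65.1-fold higher, and Pik3cb, Ptk2 and Arrb2 differed by 2.03, 1.45 and 1.04. The G-protein regulator Rgs4 fell by 2.58, the G-protein subunit Gnai2 by 1.36, Stat3 by 1.06 and Grk5 by 1.01. Against NPC, 1 was higher, Rgs4, by at least 8.32-fold, again near the share of all genes.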

How the data were processed

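RNA from 5 mouse samples was hybridised to 1-colour (Cy3) arrays, 1 array per sample. Spots were extracted with Agilent Feature Extraction 10.7.1.1, per the submitters' processing notes, and probe positions are on mm9, per the file headers. The deposited scanner files give each spot's processed signal as a background-subtracted intensity with no scaling across arrays. Log2 values make up the deposited value table (median 5.65 in each column, correlation 0.995 to 0.999 with each array's log2 signal). Its scale was read as quantile normalised, and this step is not given in the sources used here.

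Values were log2 of the processed signal minus the array's 75th percentile, without the spots that the software flagged as non-uniform or outlying. Of 55681 probes, 29676 matched a name of the reference table. The probe with the highest mean stood for a gene, and 16231 genes detected throughout at least 1 of the groups were kept. limma 3.58.1 (R 4.3.3, intensity trend) fitted the ciNPC arrays as 1 cell type (2 residual degrees of freedom) and the passages separately (1), with Benjamini-Hochberg adjustment over all genes. MEF and NPC, with 1 array each, were taken to vary as ciNPC did. NPC against MEF had no test. The number of arrays limits the precision. The fits were checked on simulated data.

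Members were named, except that 1 is counted but not reported here by name. Of the other lists, up to 4 passing genes per direction and comparison were named, and promoters were printed for up to 3 members passing in 1 direction. The members, lists and tests were chosen with earlier results of these data known. Alternatives changed the background correction, scaling, filter, choice of probe, variance model, value table and ciNPC arrays used. Figures were drawn with matplotlib 3.10.9.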

Additional observations from a re-analysis of the deposited data

Results flagged for a closer look

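The difference of Cxcr4 between ciNPC p13 and p5 stands out because the change of ciNPC from MEF differs between the passages by the fit's own test. It was 2.29 on the log2 scale (limma, adjusted p = 0.0387), and it was lost under 3 alternatives that tested it (adjusted p between 0.19 and 0.507). Cxcr4 was above background on both p13 arrays and not on p5.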

How the results depend on the processing

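No member difference that passed, in the main setting or under an alternative, changed sign. With probes above background on all arrays, which leaves few members to test, the members passing were 0 higher and 2 lower in ciNPC than in MEF, 3 higher than in NPC, 0 higher at p13 than at p5, and 0 higher and 4 lower in NPC than in MEF. Without the intensity trend, 6 members were higher in ciNPC than in NPC and 0 at p13 than at p5. That last count was also 0 with quantile normalisation and with the deposited value table. Averaging the probes of a gene gave 2 members higher in ciNPC than in MEF, Ccl5 and Ccl25. With normexp, 0 were higher in NPC than in MEF. The cause of these changes was not tested. Leaving out 1 ciNPC array gave 1 to 2 members higher than MEF (2 without p5, Cxcr4 being added), 7 to 10 lower than MEF (10 without p13 replicate 2, where Ccl3, Ccl6, Ccl17 and Cxcl16 were added), and 10 to 12 higher than NPC. Ccl5, Ccl7, Ccl9, Cxcl5, Cxcl12 and Cxcl14 were higher in ciNPC than in NPC under every alternative except the restriction to probes above background on all arrays, which removes them. Of all genes, 66 were higher and 42 lower at p13, against 2 and 0 with quantile normalisation or the deposited table, 0 and 0 without the trend, and 112 or 113 higher with averaged probes or normexp. Genes higher in ciNPC than in NPC went from 796 to 514 without the trend and 442 with probes above background on all arrays. Those lower went from 13 to between 2 and 75. In NPC against MEF, normexp left 842 of 1289 higher and the all-array filter 946 of 1644 lower. The median of all genes against MEF moved from -0.08 to 0.06 with the percentile of probes above background on all arrays, and to 0.27 without a filter. No paired analysis was possible because the groups share at most 1 replicate number. Leaving out a ciNPC array left p13 against p5 with no test. Members near background on the ciNPC arrays, whose floors were the highest, have only bounds.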
